A study of Mus musculus with 8 samples.

Results

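The genes of the tumour necrosis factor (TNF) superfamily described here were chosen by symbol. They are the protein-coding genes of the expression tables whose symbol begins with Tnfsf (ligands) or Tnfrsf (receptors) and a number, with Tnf and Lta added as ligands. The rule found 33 genes, 13 ligands and 20 receptors, among 54532 genes in all, of which 22046 are protein-coding. The set was also selected on an earlier reading of these libraries, which noted Tnfsf18 as lower with the TSP-4 plasmid in every letter. The plasmid difference of Tnfsf18 is therefore given as a description, with no test.

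Cardiac fibroblasts of C57BL/6 mice were transfected at passage 2 with 1 of 2 plasmids. The TSP-4 plasmid, pAAV.CMV.SV40.THBS4-HA.SV40(polyA), carries HA-tagged murine Thbs4, the gene of the matricellular protein thrombospondin-4 (TSP-4). Controls received the empty plasmid pAAV-CA, which is another construct, so the groups differ in plasmid as well as in the Thbs4 insert. Cells of both groups spent 12 h in standard medium and then 24 h without serum before poly(A) RNA was taken. Each group has 4 libraries, lettered A to D in both groups; the labels name neither the meaning of a letter nor the animals or cultures behind a library, so the p-values cover only library-to-library spread, which may be technical.

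Total counts ran from 17123735 to 22530947 per library, and the 33 genes took between 0.114% and 0.145% of them. Thbs4 itself reached 1783 ± 288 CPM (SD, n = 4; CPM is counts scaled to a common library total) in TSP-4 plasmid libraries, against 0.327 ± 0.254 CPM (SD, n = 4) in controls. All 10 fibroblast markers were detected in every library, with a summed level of 12796 to 18370 CPM. All 15 macrophage markers were detected too, and their sum ran from 331 to 1888 CPM in TSP-4 plasmid libraries and from 364 to 1527 CPM in controls. Of 10 markers of T, B and NK cells, 5 were at 0 in every library, and their sum did not pass 0.295 CPM.

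Ligands of this superfamily are mostly membrane proteins that assemble as trimers, and some, such as TNF, are shed by proteases. Some of their receptors carry a cytoplasmic death domain, through which adaptors can engage caspases. Receptors can also engage TRAF adaptors that lead to NF-kB and MAP kinases, and a death domain does not exclude this. Decoy receptors bind ligand without passing on a full signal. In the heart the family is known chiefly for TNF, which acts on fibroblasts, endothelial cells and myocytes during inflammation, and for TWEAK with its receptor Fn14, which has been linked to fibroblast growth and remodelling.

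The 33 genes lie on 11 chromosomes, with 9 on chromosome 4 and 6 on chromosome 17. Coordinates are those of the deposited tables on GRCm38 and span the whole gene. Tnfsf18 (ENSMUSG00000066755) lies at chr1:161494655-161505290 on the plus strand, next in the set to Tnfsf4, the OX40 ligand, at chr1:161395409-161418410. Tnf (ENSMUSG00000024401) lies at chr17:35199381-35202007 on the minus strand, beside Lta at chr17:35203165-35205351. Tnfrsf12a (ENSMUSG00000023905) lies at chr17:23675445-23677468 and Tnfrsf1b (ENSMUSG00000028599) at chr4:145213463-145246870, both on the minus strand. Tnfsf13 (ENSMUSG00000089669) and Tnfsf12 (ENSMUSG00000097328) are neighbours at chr11:69682846-69685784 and chr11:69686250-69695849, both on the minus strand. The TRAIL decoy genes Tnfrsf22 and Tnfrsf23 and their relative Tnfrsf26 lie between chr7:143607659 and chr7:143685872.

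Promoters are shown for 4 members on which the later results turn: Tnfsf18, the ligand of highest level, Tnf, the founding ligand, Tnfrsf12a, the receptor of highest level, and Tnfrsf1b, the receptor that differed most clearly between letters. The sequences are RefSeq's windows before the transcription start on build GRCm38.p6, read 5′ to 3′ on the gene's own strand and ended before the first exon base. Capitals mark the TATA motif TATAAA and the GC box GGGCGG, searched on both strands together with the AP-1 motif TGANTCA and the kappaB motif, of which these 4 windows hold neither.
Tnfsf18, chr1:161494407-161494654, plus strand: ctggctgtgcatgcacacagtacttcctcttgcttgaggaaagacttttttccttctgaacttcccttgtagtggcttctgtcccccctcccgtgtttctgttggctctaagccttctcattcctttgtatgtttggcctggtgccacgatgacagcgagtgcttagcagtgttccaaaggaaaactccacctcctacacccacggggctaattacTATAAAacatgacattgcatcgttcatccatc
Tnf, chr17:35202008-35202257, minus strand: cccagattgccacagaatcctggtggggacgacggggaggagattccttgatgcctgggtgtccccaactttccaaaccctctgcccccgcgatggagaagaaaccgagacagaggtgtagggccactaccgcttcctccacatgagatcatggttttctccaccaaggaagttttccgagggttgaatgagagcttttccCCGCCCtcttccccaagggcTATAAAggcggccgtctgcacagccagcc
Tnfrsf12a, chr17:23677469-23677699, minus strand: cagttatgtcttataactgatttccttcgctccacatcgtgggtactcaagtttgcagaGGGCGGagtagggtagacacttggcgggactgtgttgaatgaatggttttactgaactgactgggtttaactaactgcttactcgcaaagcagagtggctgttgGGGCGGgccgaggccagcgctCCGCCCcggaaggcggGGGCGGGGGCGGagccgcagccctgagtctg
Tnfrsf1b, chr4:145246871-145247120, minus strand: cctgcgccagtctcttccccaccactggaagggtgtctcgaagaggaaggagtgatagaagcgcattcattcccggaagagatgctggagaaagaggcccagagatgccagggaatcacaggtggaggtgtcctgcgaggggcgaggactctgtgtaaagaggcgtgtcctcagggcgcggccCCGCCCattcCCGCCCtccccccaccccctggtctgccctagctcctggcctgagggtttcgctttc
Counted from the transcription start, TATAAA begins at -34 in Tnfsf18 and at -29 in Tnf. Tnfrsf12a holds 5 GC boxes and Tnfrsf1b holds 2. Tnf holds 1 GC box and Tnfsf18 holds none. For 26 of the 33 members 30 windows of 250 bases were matched. A member was counted where any of its windows held the motif, whereas the shares of all promoters were counted by window. TATAAA was present for 6 members (Lta, Tnf, Tnfrsf17, Tnfrsf23, Tnfsf11 and Tnfsf18) and in 12.4% of all 32851 promoters of the same length. GC boxes were present for 12 of the 26 members and in 32.7% of all promoters. The AP-1 motif was found for 5 members (6.75% of all promoters) and the kappaB motif for Tnfrsf8 and Tnfrsf9 (3.90% of all promoters). These searches used the full 250 bases, which for some members reach into exons. The AP-1 matches of Tnfsf13, Tnfsf13b and Tnfrsf9 and the kappaB matches of Tnfrsf9 lay within the gene's own GENCODE exons. The GC box of Tnfsf13 did too. A match is a string of letters and not a shown binding site.

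Levels were compared between genes on the authors' FPKM scale, which divides counts by gene length, as mean ± SD over all 8 libraries. The set was led by receptors: 8 members had a mean of at least 10 FPKM, 7 of them receptors, 9 lay between 1 and 10 FPKM, and 16 lay under 1 FPKM. Tnfrsf12a, the TWEAK receptor Fn14, was highest at 165 ± 23.5 FPKM. Tnfrsf1a, the widely expressed TNF receptor with a death domain, followed at 59.0 ± 3.77 FPKM, and Tnfrsf1b, the TNF receptor without one, at 57.3 ± 18.4 FPKM. Tnfrsf23, a decoy receptor for TRAIL, stood at 39.6 ± 1.13 FPKM. Tnfsf18, the ligand of GITR, a costimulatory receptor of T cells, came next at 38.1 ± 8.31 FPKM, as the only ligand of this range. Tnfrsf11b, the secreted decoy receptor osteoprotegerin, had 36.4 ± 4.56 FPKM. The 8 were completed by Tnfrsf26, a relative of the TRAIL decoys beside them on chromosome 7, at 27.3 ± 2.90 FPKM and by Tnfrsf10b, the TRAIL death receptor of the mouse, at 19.5 ± 1.13 FPKM. Among neighbours in this order, the 8 libraries did not overlap in 3 cases: Tnfrsf12a lay above Tnfrsf1a, Tnfrsf26 above Tnfrsf10b and Tnfrsf10b above Tnfsf12. All other neighbours overlapped in range.

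**Figure D1:**
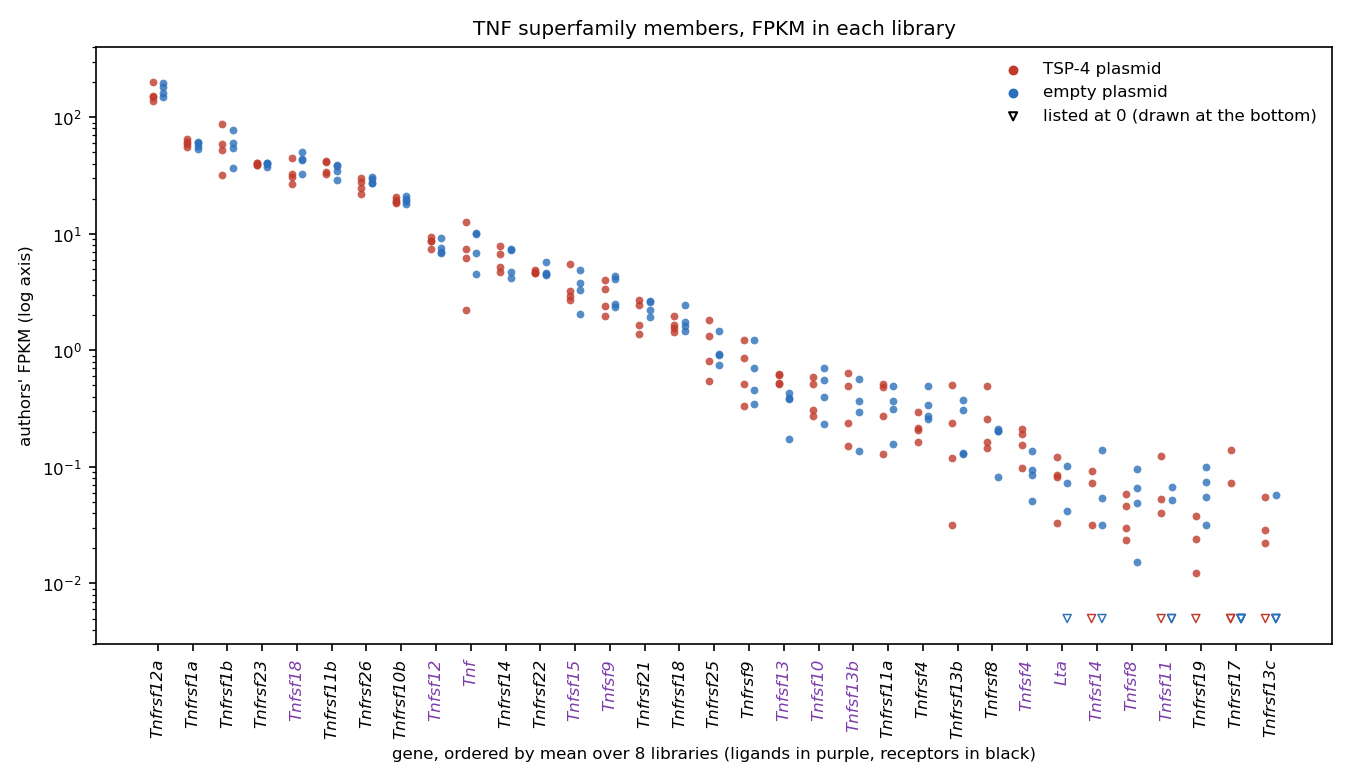
FPKM of each of the 33 members (log axis) in the 4 TSP-4 plasmid libraries (red) and the 4 empty plasmid libraries (blue), ordered by the mean over 8 libraries, with triangles at the bottom for libraries listed at 0. Tnfrsf12a lies above all other members, receptors (black names) hold 7 of the first 8 places, and a gap separates Tnfrsf10b from Tnfsf12.

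Ligands made up 11.5% to 13.9% of the summed FPKM of the set, and Tnfsf18 alone made up 49.6% to 72.3% of the ligand sum. Members near each other could differ widely: Tnfsf4, near Tnfsf18, had 0.128 ± 0.0558 FPKM, and Lta, near Tnf, had 0.0673 ± 0.0397 FPKM. Known partners were also present at unequal levels. Fn14 far exceeded its ligand TWEAK (Tnfsf12), which stood at 8.08 ± 0.980 FPKM. Both TNF receptors exceeded Tnf, which stood at 7.48 ± 3.32 FPKM. The reverse held for Tnfsf18, whose receptor Tnfrsf18 (GITR) had 1.74 ± 0.337 FPKM. Tnfsf9, the ligand of the costimulatory receptor CD137, stood at 3.13 ± 0.932 FPKM and that receptor, Tnfrsf9, at 0.708 ± 0.365 FPKM. Tnfsf15, the ligand TL1A, had 3.54 ± 1.15 FPKM and its death domain receptor Tnfrsf25 had 1.07 ± 0.424 FPKM. Tnfsf10, which is TRAIL, stood at only 0.448 ± 0.171 FPKM, under its receptor Tnfrsf10b and the decoys. Osteoprotegerin was found beside little of its ligand RANKL (Tnfsf11, 0.0422 ± 0.0432 FPKM) and little of the receptor RANK (Tnfrsf11a, 0.341 ± 0.151 FPKM). These are levels of RNA in whole cultures and do not show which cells hold which partner.

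An expression filter on counts kept 24 of the 33 members, 8 ligands and 16 receptors. The other 9 were Tnfrsf4, Tnfsf4, Tnfrsf19, Tnfsf8, Tnfsf14, Tnfsf11, Lta, Tnfrsf13c and Tnfrsf17, and none passed 13 counts in any library. They include OX40 (Tnfrsf4) and its ligand Tnfsf4, the CD30 ligand Tnfsf8, LIGHT (Tnfsf14), lymphotoxin alpha (Lta), and the B cell receptors for BAFF (Tnfrsf13c) and APRIL (Tnfrsf17, also called BCMA). Tnfrsf17 was at 0 counts in 6 libraries, Tnfrsf13c in 4, Tnfsf11 in 3, Tnfsf14 in 2, and Tnfrsf19 and Lta in 1 each. A count of 0 allows up to 3 counts, or 0.133 to 0.175 CPM depending on the library, so these genes were not detectable there at this depth. Tnfrsf19, the receptor TROY, had 7 counts over the TSP-4 plasmid libraries and 24 over the controls, and Tnfsf4 had 22 and 13; neither was tested.

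The comparison between plasmids asks whether TSP-4 overexpression changed the family. No member other than Tnfsf18, which was not tested, was called: 0 of 23 members passed an adjusted p of 0.05 by edgeR's quasi-likelihood test with Benjamini-Hochberg adjustment over all genes, against a background of 1 of 14723 genes (0.00679%), which was Thbs4. The adjusted p was 1.00 for every one of the 23. With the letter as a replicate block, again 0 of 23 were called against 2 genes in all (0.0136%), and the smallest adjusted p of a member was 0.425. DESeq2 called 0 of 23 as well. At an unadjusted p under 0.05 edgeR found 1 of the 23, Tnfsf13, among 235 genes in all (1.60%). With the block it found 3 of the 23, namely Tnfsf13, Tnfrsf12a and Tnfrsf26, among 1196 genes in all (8.12%). Of the 24 members, Tnfsf18 included, 12 had a fitted log2 fold change (TSP-4 plasmid over empty plasmid) above 0 and 12 below it, with a median of 8e-04 against -1e-04 over all genes tested. The precision was uneven. For 15 of the 23 the 95% interval lay within a 2-fold change either way, and for 8 it lay within 1.5-fold. With the block, which takes the letter differences out of the spread, these counts were 20 and 19. The intervals of single members below are without the block unless it is named.

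**Figure D2:**
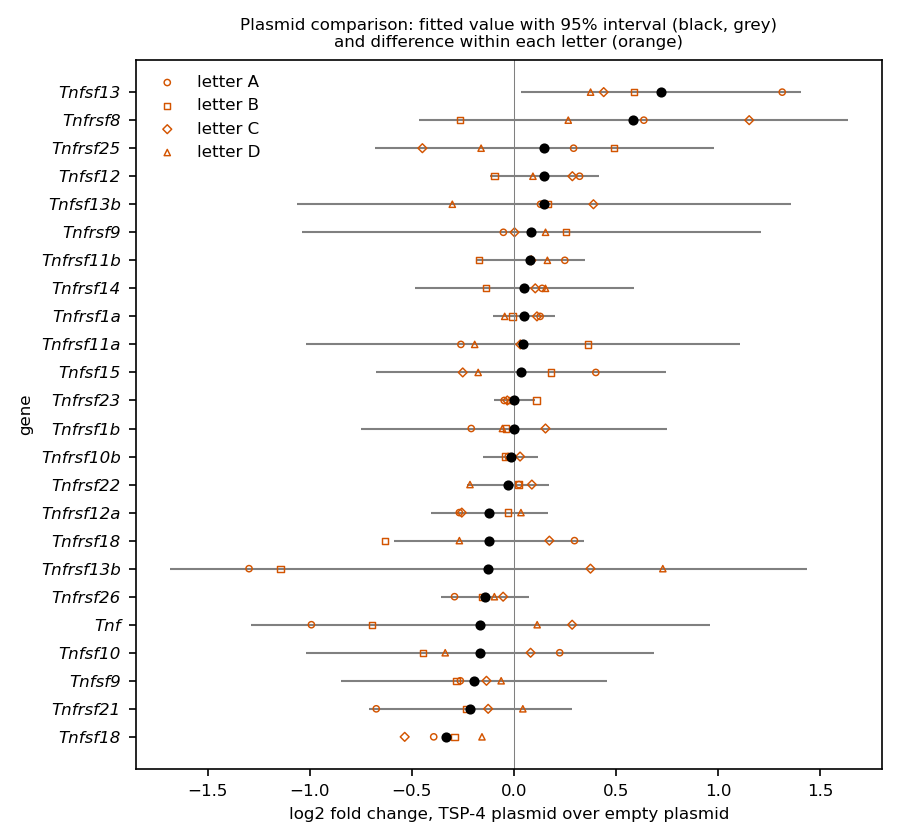
Fitted log2 fold change (TSP-4 plasmid over empty plasmid) of the 24 members that passed the filter, in black, with its 95% interval in grey (fit without the block), and the difference between the plasmids within each letter in orange. Tnfsf18, at the bottom, has no interval because it was chosen for this difference, and the intervals of all other members but Tnfsf13 include 0.

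Values by library are given below in the order A, B, C, D, as CPM scaled by TMM factors. Tnfsf18 measured 67.7, 55.8, 63.5 and 92.9 CPM after TSP-4 transfection against 88.9, 68.3, 92.1 and 104 CPM in controls. Letter for letter, each TSP-4 plasmid library was below its empty plasmid counterpart, with log2 differences of -0.39, -0.29, -0.54 and -0.16, although the groups overlapped. The group means were 70.0 ± 16.0 and 88.2 ± 14.7 CPM (SD, n = 4 each), and the fitted log2 fold change was -0.33. It ranged from -0.50 to -0.24 when 1 library was left out. These are the values that led to its selection, so that range is no separate support for a difference.

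With Tnfsf18 set aside, 2 of 23 members (8.70%), Tnfrsf26 and Tnfsf9, were lower with the TSP-4 plasmid in all 4 letters, against 8.04% of all genes tested. Tnfsf13 alone of the 23 (4.35%) was higher in all 4, against 8.03% of all genes. Tnfrsf26 measured 70.8, 79.2, 96.3 and 89.2 CPM after TSP-4 transfection against 86.7, 88.3, 99.9 and 95.3 CPM in controls. The lowest value was that of TSP-4 plasmid library A, the groups overlapped, and the log2 fold change was -0.14 (95% interval -0.36 to 0.07). With the block it was -0.15 (95% interval -0.25 to -0.05), at an adjusted p of 0.425 by edgeR. Tnfsf9 measured 2.53, 4.39, 5.14 and 3.09 CPM after TSP-4 transfection against 3.05, 5.36, 5.65 and 3.23 CPM in controls. Libraries B and C of both plasmids were high and libraries A and D low, so the groups overlapped widely, with a log2 fold change of -0.19 (95% interval -0.85 to 0.46). With the block it was -0.19 (95% interval -0.49 to 0.11).

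Tnfsf13 encodes APRIL, a ligand of B cell and plasma cell receptors. Tnfsf13 measured 0.857, 1.03, 1.01 and 0.843 CPM after TSP-4 transfection against 0.282, 0.648, 0.713 and 0.626 CPM in controls. All TSP-4 plasmid libraries were above all empty plasmid libraries, which held for no other member that passed the filter and for 96 of 14723 genes tested (0.652%). The log2 fold change was 0.72 (95% interval 0.04 to 1.40), with an unadjusted p of 0.0410 and an adjusted p of 1.00 by edgeR, and it lay between 0.49 and 0.86 when 1 library was left out. The values rest on 15 to 19 counts in each TSP-4 plasmid library and on 6 to 14 in each control. They are also uncertain in origin, since 57.3% of the 50-base windows of its transcripts occur in the readthrough gene Tnfsfm13 and an antisense gene, Tnfsf13os, overlaps it.

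**Figure D3:**
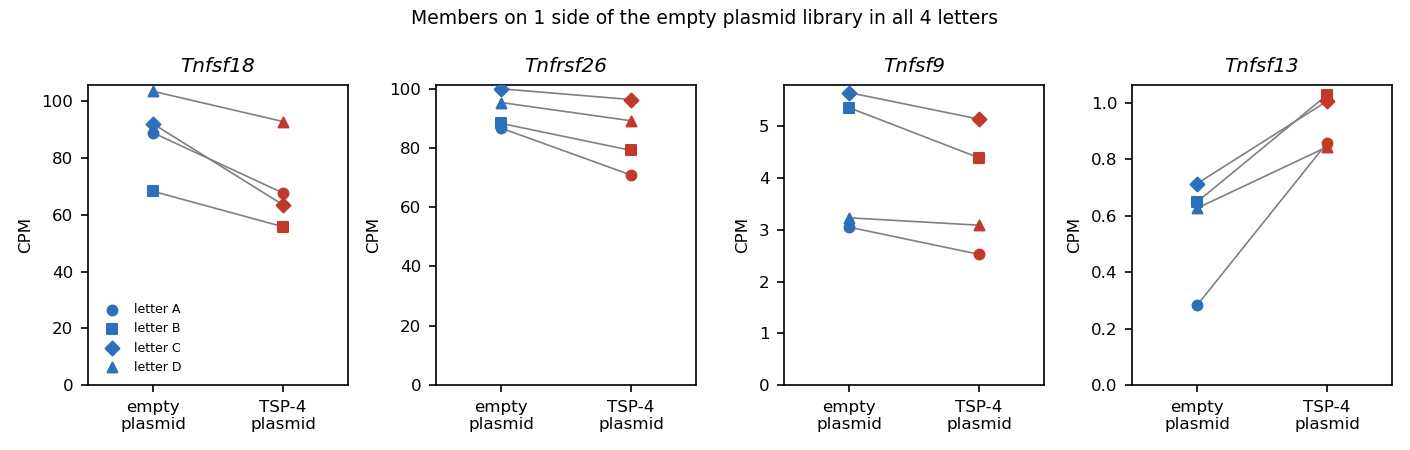
CPM of the 4 members that lay on 1 side in all 4 letters, with each line joining the empty plasmid library (blue) and the TSP-4 plasmid library (red) of a letter, and axes starting at 0. Tnfsf18, Tnfrsf26 and Tnfsf9 are lower with the TSP-4 plasmid in each letter and Tnfsf13 is higher, and only the Tnfsf13 groups do not overlap.

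The remaining ligands showed no call between plasmids. Tnf measured 3.66, 10.2, 20.6 and 12.2 CPM after TSP-4 transfection against 7.37, 16.5, 16.9 and 11.3 CPM in controls. Library A was lowest in both groups; the TSP-4 plasmid was below the empty plasmid in A and B and above it in C and D, and the log2 fold change was -0.16 (95% interval -1.29 to 0.96). With the block it was -0.25 (95% interval -0.87 to 0.37), an interval that no longer holds a 2-fold decrease. Tnfsf12 measured 13.0, 13.2, 14.2 and 11.4 CPM after TSP-4 transfection against 10.4, 14.1, 11.6 and 10.6 CPM in controls. The groups overlapped, with a log2 fold change of 0.15 (95% interval -0.12 to 0.42); Tnfsf12 shares 46.8% of its windows with Tnfsfm13, so its counts are uncertain too. Tnfsf15 measured 9.03, 18.6, 10.8 and 9.78 CPM after TSP-4 transfection against 6.81, 16.4, 12.9 and 11.1 CPM in controls. Library B was highest with both plasmids, and the log2 fold change was 0.03 (95% interval -0.68 to 0.74).

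The ligands BAFF and TRAIL were low. Tnfsf13b measured 1.04, 4.45, 3.37 and 1.63 CPM after TSP-4 transfection against 0.939, 3.95, 2.55 and 2.03 CPM in controls. Tnfsf13b encodes BAFF, a survival factor of B cells, and its log2 fold change was 0.15 (95% interval -1.06 to 1.36). With the block it was 0.13 (95% interval -0.28 to 0.53). Tnfsf10 measured 1.44, 2.74, 3.13 and 1.63 CPM after TSP-4 transfection against 1.22, 3.77, 2.95 and 2.09 CPM in controls. For TRAIL the log2 fold change was -0.17 (95% interval -1.02 to 0.69), or -0.14 (95% interval -0.55 to 0.27) with the block. For both ligands libraries B and C were the highest in each group.

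Among the receptors, Fn14 and the TNF receptors come first. Tnfrsf12a measured 292, 288, 264 and 387 CPM after TSP-4 transfection against 351, 293, 316 and 378 CPM in controls. It was lower with the TSP-4 plasmid in A, B and C and higher in D, the groups overlapped, and the log2 fold change was -0.12 (95% interval -0.41 to 0.17). With the block it was -0.13 (95% interval -0.24 to -0.02), at an adjusted p of 0.557 by edgeR. Tnfrsf1a measured 152, 159, 170.0 and 144 CPM after TSP-4 transfection against 139, 160.1, 157 and 148 CPM in controls. Its 8 values lay close together and the log2 fold change was 0.05 (95% interval -0.10 to 0.20), so that a change of 1.5-fold lies outside the interval. Tnfrsf1b measured 121, 227, 331 and 199.6 CPM after TSP-4 transfection against 140.3, 234, 298 and 208 CPM in controls. Library A was lowest and library C highest with each plasmid, and the log2 fold change was 0.00 (95% interval -0.75 to 0.75), or -0.04 (95% interval -0.14 to 0.07) with the block.

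The receptors for TRAIL varied little. Tnfrsf23 measured 155, 161, 159 and 156 CPM after TSP-4 transfection against 160.3, 149, 163 and 158 CPM in controls. Its log2 fold change of 0.00 (95% interval -0.10 to 0.10) had the narrowest interval of the set. Tnfrsf10b measured 113, 101, 102 and 108 CPM after TSP-4 transfection against 115, 105, 99.8 and 109 CPM in controls. The log2 fold change of this death receptor was -0.02 (95% interval -0.15 to 0.12), and the groups overlapped. Tnfrsf22 measured 19.5, 19.6, 20.0 and 20.7 CPM after TSP-4 transfection against 19.2, 19.3, 18.8 and 24.1 CPM in controls. One empty plasmid library, D, stood above the others, and the log2 fold change of this second decoy was -0.03 (95% interval -0.23 to 0.17). Tnfrsf22 has 17.3% of its 50-base windows in common with Tnfrsf23, which has 18.0% in common with it, while Tnfrsf26 shares none with either. In all, 27.4% of the windows of Tnfrsf22 occur in other genes (18 of them), as do 5.80% of those of Tnfrsf10b (380 genes). An antisense gene, E230032D23Rik, overlaps Tnfrsf22, Tnfrsf23 and Tnfrsf26. The counts of these genes are therefore uncertain.

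Osteoprotegerin and the receptors of the middle range followed. Tnfrsf11b measured 117, 96.9, 118 and 91.6 CPM after TSP-4 transfection against 98.0, 109, 111 and 81.8 CPM in controls. Library D was the lowest of each group, and the log2 fold change was 0.08 (95% interval -0.19 to 0.35). Tnfrsf14 measured 7.40, 9.76, 11.3 and 6.74 CPM after TSP-4 transfection against 6.72, 10.7, 10.5 and 6.05 CPM in controls. This gene encodes HVEM, a receptor for LIGHT and a partner of the lymphocyte inhibitor BTLA, and its log2 fold change was 0.05 (95% interval -0.49 to 0.59), with B and C high in both groups. Tnfrsf21 measured 5.64, 6.85, 10.2 and 11.1 CPM after TSP-4 transfection against 9.07, 8.07, 11.1 and 10.8 CPM in controls. This is the death domain receptor DR6, low in libraries A and B, with a log2 fold change of -0.21 (95% interval -0.71 to 0.28).

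The receptors best known from lymphocytes were low in these cultures. Tnfrsf18 measured 3.02, 2.40, 2.54 and 2.19 CPM after TSP-4 transfection against 2.44, 3.77, 2.24 and 2.66 CPM in controls. The groups of this receptor overlapped, with a log2 fold change of -0.12 (95% interval -0.59 to 0.34). Tnfrsf25 measured 4.11, 3.02, 1.24 and 1.85 CPM after TSP-4 transfection against 3.34, 2.12, 1.73 and 2.09 CPM in controls. Library A was highest in each group, and the log2 fold change was 0.15 (95% interval -0.68 to 0.98). Tnfrsf11a measured 0.767, 2.91, 3.07 and 1.63 CPM after TSP-4 transfection against 0.939, 2.24, 3.01 and 1.88 CPM in controls. For RANK, which is also the receptor that drives osteoclast formation from macrophage precursors, A was lowest in each group and the log2 fold change was 0.05 (95% interval -1.02 to 1.11). With the block it was 0.02 (95% interval -0.41 to 0.45).

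Tnfrsf9 measured 0.902, 2.34, 3.37 and 1.41 CPM after TSP-4 transfection against 0.939, 1.95, 3.36 and 1.25 CPM in controls. Libraries B and C were high with either plasmid and the log2 fold change was 0.08 (95% interval -1.04 to 1.21). With the block it was 0.10 (95% interval -0.33 to 0.52). Tnfrsf8 measured 0.496, 0.570, 1.71 and 0.899 CPM after TSP-4 transfection against 0.282, 0.707, 0.713 and 0.730 CPM in controls. This gene encodes CD30; TSP-4 plasmid library C was highest and empty plasmid library A lowest, and the log2 fold change was 0.58 (95% interval -0.47 to 1.64). Tnfrsf13b measured 0.0902, 0.342, 1.42 and 0.674 CPM after TSP-4 transfection against 0.376, 0.884, 1.07 and 0.365 CPM in controls. TACI, the receptor this gene encodes, binds BAFF and APRIL; its lowest value was that of TSP-4 plasmid library A, and the log2 fold change of -0.13 (95% interval -1.69 to 1.43) had the widest interval of the set.

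More members were called between letters than between plasmids. Asked in 1 fit beside the plasmid, with 1 library of each plasmid per letter, 14 of 23 members (60.9%) differed between letters at an adjusted p of 0.05, against 28.1% of all 14723 genes tested (edgeR's quasi-likelihood F test, Benjamini-Hochberg adjusted over all genes). For 9 of the 14 (39.1% of the 23), letters B and C were the highest. A call of that kind was found for 11.4% of all genes. The letter test did not ask for this profile, which was read from the same libraries. These shares are therefore a description and no test. The 9 were the ligands Tnfsf15, Tnfsf9, Tnfsf13b and Tnfsf10 and the receptors Tnfrsf1b, Tnfrsf14, Tnfrsf11a, Tnfrsf9 and Tnfrsf13b. The means over the 2 libraries of each letter follow in the order A, B, C, D.

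Tnfrsf1b had letter means of 131, 230.4, 315 and 204 CPM, a ratio of the highest to the lowest of 2.40 (adjusted p = 8.14e-07). No library of another letter was as high as the libraries C or as low as the libraries A. Tnfsf13b had means of 0.989, 4.20, 2.96 and 1.83 CPM and a ratio of 4.25 (adjusted p = 3.18e-04). Tnfsf15 had B well above the other letters, with means of 7.92, 17.5, 11.9 and 10.4 CPM and a ratio of 2.21 (adjusted p = 4.25e-04). Tnfrsf9 ranged 3.65-fold, with means of 0.921, 2.14, 3.37 and 1.33 CPM (adjusted p = 7.09e-04), and its ligand Tnfsf9 ranged 1.93-fold, with means of 2.79, 4.88, 5.40 and 3.16 CPM (adjusted p = 0.00432). Receptor and ligand were thus both high in C and B and low in D and A.

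Tnfrsf14 had letter means of 7.06, 10.2, 10.9 and 6.40 CPM (adjusted p = 0.00159), with D lowest. Tnfrsf11a had means of 0.853, 2.57, 3.04 and 1.75 CPM (adjusted p = 0.00163) and Tnfsf10 of 1.33, 3.25, 3.04 and 1.86 CPM (adjusted p = 0.00737), both with A lowest. The widest ratio, 5.34, was that of Tnfrsf13b, with means of 0.233, 0.613, 1.24 and 0.520 CPM (adjusted p = 0.0417), at a few counts in library A of the TSP-4 plasmid. Of the 23 members tested, 5 (21.7%) were called with letter means in the order C, B, D, A, namely Tnfrsf1b, Tnfsf9, Tnfrsf11a, Tnfrsf9 and Tnfrsf13b. Of all genes tested, 678 (4.61%) were called in that order. The order was likewise read from the same libraries, so these shares are no test.

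The summed macrophage markers followed that order too, with letter means of 348, 973, 1708 and 757 CPM in the order A, B, C, D. Of the 15 markers 14 differed between letters, all 14 with B and C highest. Over all genes tested, 28.1% differed between letters, and 11.4% did so with B and C highest. Fibroblast markers differed as well: 9 of 10 were called, 4 of them with B and C highest, among them the matrix proteoglycan Dcn (134, 532, 366 and 167 CPM, adjusted p = 2.35e-09) and the growth factor receptor Pdgfra (42.8, 96.1, 84.6 and 46.1 CPM, adjusted p = 1.57e-04), while Col1a1 was highest in A (5946, 5699, 5124 and 4617 CPM, adjusted p = 0.00143). Their sum is dominated by collagens and Vim and had letter means of 16680, 18078, 15214 and 12961 CPM. Of 9 endothelial markers 5 were called, 3 with B and C highest; the endothelial sum ranged from 52.0 to 87.5 CPM over the libraries and was lowest in B with either plasmid. The cardiomyocyte sum ranged from 12.1 to 17.5 CPM, most of it from Tnnt2 at 11.1 to 16.8 CPM. Only 3 of the 7 cardiomyocyte markers were detected in every library. The part of macrophage, fibroblast or endothelial RNA in the letter differences of the members was not tested. In bulk libraries, fewer cells of a type and less RNA per cell cannot be told apart.

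**Figure D4:**
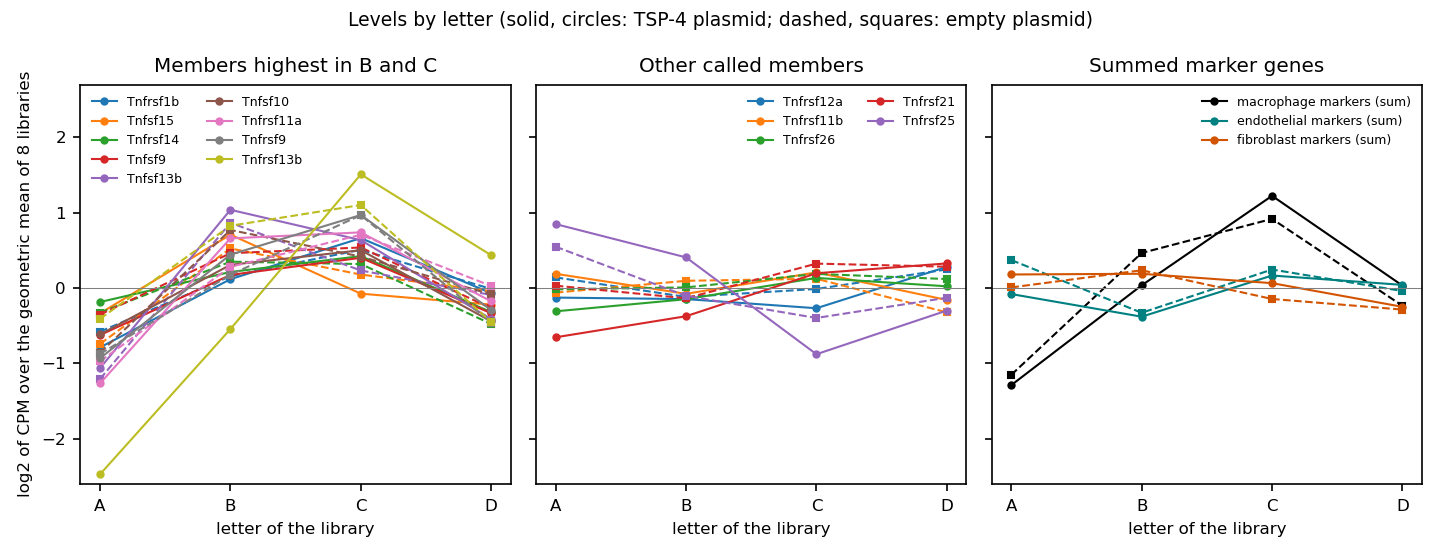
Level by letter as log2 of CPM over the geometric mean of the 8 libraries, for the 9 members highest in B and C (left), the 5 other members that differed between letters (middle) and summed cell type markers (right), with solid lines for the TSP-4 plasmid and dashed lines for the empty plasmid. On the left, library A lies below B and C with both plasmids for most members, as it does for the macrophage marker sum.

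The 5 other members that differed between letters did not share that profile. Tnfrsf12a was highest in D and next in A, with means of 321, 290.4, 290.0 and 382 CPM (adjusted p = 0.00345). Tnfrsf11b was lowest in D, at 107, 103, 115 and 86.7 CPM (adjusted p = 0.0222). Tnfrsf26 and Tnfrsf21 were both higher in C and D: Tnfrsf26 had means of 78.8, 83.7, 98.1 and 92.2 CPM (adjusted p = 0.00644) and Tnfrsf21 of 7.35, 7.46, 10.6 and 11.0 CPM (adjusted p = 0.0172). Tnfrsf25 ran the other way from the macrophage sum, with its highest mean in A and its lowest in C, at 3.72, 2.57, 1.49 and 1.97 CPM (adjusted p = 0.0122). Tnfsf18, given without a test, had means of 78.3, 62.0, 77.8 and 98.2 CPM, with D highest and B lowest.

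The 9 members without a call between letters included Tnf, whose means of 5.51, 13.3, 18.7 and 11.8 CPM spanned a ratio of 3.39 (adjusted p = 0.0638). Its libraries within a letter also lay apart, at 3.66 and 7.37 CPM in A and at 10.2 and 16.5 CPM in B. Tnfrsf8 spanned 3.12-fold (adjusted p = 0.0857), on values under 2 CPM. Tnfrsf1a spanned 1.13-fold (adjusted p = 0.0638) and Tnfrsf10b 1.13-fold (adjusted p = 0.0660). The decoys Tnfrsf23 (1.04-fold) and Tnfrsf22 (1.16-fold), the ligands Tnfsf12 (1.24-fold) and Tnfsf13 (1.51-fold) and the receptor Tnfrsf18 (1.29-fold) completed the group.

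The letter calls of 6 members (Tnfrsf1b, Tnfsf15, Tnfrsf14, Tnfsf9, Tnfsf13b and Tnfrsf9) held under all 8 alternatives. Leaving out both libraries of a letter ended the calls of Tnfsf10 and Tnfrsf11a (without A), of Tnfrsf13b (without A), of Tnfrsf25 (without A or C), of Tnfrsf26 (without C), of Tnfrsf11b (without C or D) and of Tnfrsf12a and Tnfrsf21 (without D). Tnfrsf26 also lost its call with the letter as the single term, and Tnfrsf13b with limma voom; without letter C, Tnfrsf13b did not pass the filter. Tnf and Tnfrsf10b each gained a call in 3 of the 8 alternatives.

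Genes around the family were examined in 4 lists. None of their genes was called between plasmids, with or without the replicate block. Of 13 superfamily genes with other symbols, 8 passed the filter (median log2 fold change -0.02, against -1e-04 over all genes tested). Against 28.1% of all genes tested, 3 of the 8 (37.5%) differed between letters. They were Cd40, a costimulatory receptor of antigen-presenting cells, at letter means of 10.1, 17.4, 23.2 and 22.5 CPM (adjusted p = 1.18e-05), the death receptor Fas at 45.1, 60.2, 62.2 and 39.2 CPM (adjusted p = 2.81e-05), and Relt at 7.56, 6.58, 6.93 and 10.4 CPM (adjusted p = 0.0103). The genes with the highest counts of this list were Ltbr, the lymphotoxin beta receptor, at 129 ± 7.21 CPM after TSP-4 transfection and 129 ± 7.57 CPM in controls, and Eda2r at 65.7 ± 4.65 and 63.6 ± 4.35 CPM (SD, n = 4 each).

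All 24 adaptors and regulators that act next to the receptors passed the filter. Their median log2 fold change was 0.01, and 8 of them (33.3%) differed between letters, against 28.1% of all genes tested. The smallest p-values were those of Birc3 (35.6, 57.9, 62.1 and 46.2 CPM, adjusted p = 2.98e-05) and Birc2 (44.1, 68.7, 71.7 and 41.8 CPM, adjusted p = 5.39e-04), ubiquitin ligases of the TNF receptor complex, of Traf1 (4.14, 8.77, 9.43 and 7.05 CPM, adjusted p = 7.20e-04) and of Cflar (291, 326, 371 and 391 CPM, adjusted p = 7.64e-04), the inhibitor of caspase-8 activation. Cflar averaged 335 ± 56.6 CPM after TSP-4 transfection and 355 ± 34.7 CPM in controls, and Traf3 averaged 147 ± 4.41 and 147 ± 5.71 CPM (SD, n = 4 each). Of the 4 genes of shedding, 3 differed between letters: Adam17, which sheds TNF (53.7, 71.7, 76.7 and 58.1 CPM, adjusted p = 1.49e-04), its cofactor Rhbdf2 (62.4, 83.2, 88.9 and 79.3 CPM, adjusted p = 1.24e-04) and Adam10 (199, 181, 173 and 161 CPM, adjusted p = 0.0226). Adam17 and Rhbdf2 were highest in C and lowest in A, whereas Adam10 was highest in A.

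TNF-inducible genes differed between letters in 14 of 15 cases (93.3%), against 28.1% of all genes tested, with Csf1 as the exception. Between plasmids their median log2 fold change was -0.06, with 13 of 15 below 0 (7369 of 14723 over all genes tested) and 0 called. Marker lists were uneven too: 13 of 15 macrophage and 9 of 10 fibroblast markers lay above 0, and 7 of 9 endothelial markers below it. Genes of a list were measured in the same 8 libraries and are not independent of each other, so these tallies are no test. The 4 with the smallest p-values between letters were the adhesion molecule Vcam1 (826, 1589, 1816 and 1114 CPM, adjusted p = 4.18e-08), the chemokines Ccl2 (640.3, 1296, 1328 and 1071 CPM, adjusted p = 7.97e-07) and Cxcl1 (54.4, 213, 352 and 186 CPM, adjusted p = 7.97e-07), and the NF-kB inhibitor Nfkbie (17.9, 34.3, 37.0 and 25.2 CPM, adjusted p = 8.59e-06). All 4 were lowest in letter A and highest in letter C, as were Tnfrsf1b, the macrophage marker sum and Tnf, which was not called between letters. Of the 14 called genes of the list, 11 had B and C highest, a kind of call found for 11.4% of all genes tested. Tnfaip3, also called, was highest in D. The part of macrophage RNA, or of RNA from other cells, in these letter differences was not tested.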

How the data were processed

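The count table deposited by the authors holds whole-number read counts per gene, used as deposited, and their FPKM table holds counts divided by gene length and library total. Upstream, the builds mm10 and GRCm38.p6 and the tools HTSeq 0.6.1, Cufflinks 2.1.1, TopHat2 2.0 and CASAVA are listed, per the submitters' processing notes. How strand and multiply mapping reads were treated is not given in the sources used here. Libraries were made with a NEBNext Ultra kit, per the labels. Members and lists were chosen with earlier results of these data known. The rule for naming was every member, Thbs4, and of each list up to 4 genes past a threshold by smallest p, otherwise the 2 of highest CPM. Named beyond this rule were Ltbr, Eda2r and Traf3, for their high CPM, and Csf1 and Tnfaip3. Single cell type markers, such as Dcn, Pdgfra and Col1a1, were picked as examples and not by this rule.

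Counts were tested with edgeR 4.0.16 in R 4.3.3 (quasi-likelihood, robust, TMM factors, expression filter at a minimum count of 10), on all 14723 genes that passed, with group alone as the term and p-values adjusted by Benjamini-Hochberg at 0.05. The letter term was an F test over the letters beside group. The p-values and intervals include the spread between libraries, and depth was 17123735 to 22530947 counts. The scripts were tested on simulated counts. Alternatives used RLE factors, DESeq2 1.42.0, limma 3.58.1 (voom), no filter, the replicate block, letters alone, and fewer libraries.

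Both groups have letters A to D. Deviations from group means correlated between the libraries of a letter over 14723 genes (not independent of each other), at Pearson's r of 0.651, 0.512, 0.594 and 0.508, and at most 0.323 between letters. The same-letter values lie over 0.1, the limit set for pairing, but this limit does not set them apart from the highest values between letters. Each same-letter value was above the highest value of its letter with another letter. Letters were taken to pair the libraries. This comes from the values, and the labels do not state it.

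Sequences are RefSeq's on GRCm38.p6. Coordinates of all 33 members in the files equal those of GENCODE M21, whose transcripts gave the shared 50-base windows.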

Additional observations from a re-analysis of the deposited data

Results flagged for a closer look

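In 48 sets of 4 libraries (24 members in each group), 1 library stood far from the other 3 in 2 sets, or 4.17%, where chance alone gives about 5%. For Tnfrsf22, empty plasmid library D (24.1 CPM) lay above the others (18.8 to 19.3 CPM), and its gap to the nearest library was 0.908 of the whole range. For Tnfrsf8, empty plasmid library A (0.282 CPM) lay below the others (0.707 to 0.730 CPM), and the gap was 0.949 of the range. Neither gene was called between plasmids or between letters.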

How the results depend on the processing

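The count of members called between plasmids was 0 under all 16 alternatives (RLE factors, DESeq2, no filter, the replicate block, each library left out, and the block with each letter left out), as with all 8 libraries. Over all genes tested, 1 to 5 were called under these alternatives. The replicate block gave 0 of 23 as well, changed no call, and had a smallest adjusted p of 0.425; over the 16 alternatives that smallest value ran from 0.342 to 1.00. The log2 fold changes of 23 members (Tnfsf18 aside, which was chosen by its sign) gave 367 values under these alternatives, of which 48 had the other sign, in 15 members. Leaving out 1 library moved Tnfrsf13b from -0.13 to between -0.89 and 0.27, and Tnfrsf8 from 0.58 to between 0.11 and 0.81. The count of members that differed between letters was 14 of 23, beside 4134 of all genes tested (28.1%). Under 8 alternatives it was 10 to 16, beside 2961 to 5072 of all genes. The 16 was of 32 members tested without the filter, and 22 members were tested without letter C. The order by level was the same for 24 of 33 members by the median, with no shift over 2 places; that per kilobase of scaled CPM (33 of 33) had to be the same up to library scaling, since the FPKM values are the same counts over length. Depth limits the 9 members that failed the filter.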
